A study of Mus musculus with 12 samples.

Results

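The 3 libraries of anergic CD4 T cells were set against the 9 libraries of the other 3 sorted subsets together, to find the genes on which the anergic libraries stood apart from every other library. All cells came from the mixed spleen and lymph nodes of untreated C57BL/6 wild-type mice with a polyclonal T cell repertoire and a Foxp3-GFP reporter, which marks regulatory cells by fluorescence. The 4 subsets, with 3 libraries each, were sorted by surface protein and reporter. Anergic cells were CD44high and FOXP3-negative with high CD73 and FR4 and with NRP1. Teff, the effector cells, were also CD44high and FOXP3-negative but low in CD73 and FR4. Treg were FOXP3-positive and CD25-positive, and Naive cells were CD44low. A gene was counted where its lowest Anergic library lay above its highest other library, or its highest Anergic library below its lowest other library, in CPM (counts scaled to library size, with the TMM factors of edgeR). Of 13393 genes with enough counts to test, 1233 lay above all 9 others (9.21%) and 848 below (6.33%). The rule reads the same libraries as the tests, so a gene's separation is no separate support for its test. Separate animals are not stated for the replicates, so p-values speak for the spread among these libraries alone, which could be technical.

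Anergy is a lasting unresponsiveness of T cells that met antigen without adequate costimulation. In mice, polyclonal anergic CD4 cells are recognised by high CD73, an enzyme that makes adenosine, high FR4, a folate receptor family protein, and NRP1, a semaphorin receptor. Anergic cells are known to signal through NFAT with little of its AP-1 partner, and to express inhibitory receptors, ubiquitin ligases and diacylglycerol kinases that restrain the T cell receptor. Follicular helper cells are antigen-experienced cells that help B cells through IL-21, depend on BCL6 and can carry FR4 and CD73 too. The stated gate names no marker that would keep them out.

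For 7 genes the bases just upstream of a RefSeq transcript start (GRCm38.p6) are printed from 5′ to 3′ on the gene's strand. Edn3, Il21 and Angptl2 were among the genes furthest above all other libraries, Batf and Bcl2l11 are the genes the study is about, and Sema4c and Hmgcs1 carry a match to a searched motif. Capitals mark the match, which is to the AP-1 motif TGANTCA in Sema4c and to the sterol element TCACNCCAC in Hmgcs1. The Batf stretch stops where an earlier annotated start begins.
Edn3, chr2:174760369-174760618, plus strand: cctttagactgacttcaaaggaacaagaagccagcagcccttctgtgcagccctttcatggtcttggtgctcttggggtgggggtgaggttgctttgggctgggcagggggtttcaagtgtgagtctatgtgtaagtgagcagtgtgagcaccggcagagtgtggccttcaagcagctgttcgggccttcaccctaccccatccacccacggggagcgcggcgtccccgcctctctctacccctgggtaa
Il21, chr3:37232637-37232886, minus strand: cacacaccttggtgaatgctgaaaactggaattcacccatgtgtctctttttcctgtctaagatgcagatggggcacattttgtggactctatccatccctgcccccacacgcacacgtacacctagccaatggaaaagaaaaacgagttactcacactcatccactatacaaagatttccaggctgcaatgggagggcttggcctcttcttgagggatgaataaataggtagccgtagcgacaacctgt
Angptl2, chr2:33215711-33215960, plus strand: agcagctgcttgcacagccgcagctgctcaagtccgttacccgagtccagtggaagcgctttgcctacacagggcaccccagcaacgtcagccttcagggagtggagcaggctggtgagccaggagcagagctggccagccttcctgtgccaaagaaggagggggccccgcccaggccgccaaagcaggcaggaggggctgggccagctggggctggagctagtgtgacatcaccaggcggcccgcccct
Batf, chr12:85686470-85686668, plus strand: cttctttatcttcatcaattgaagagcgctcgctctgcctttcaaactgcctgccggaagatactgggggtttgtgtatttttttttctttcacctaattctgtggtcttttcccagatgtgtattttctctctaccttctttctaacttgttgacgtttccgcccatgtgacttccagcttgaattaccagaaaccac
Bcl2l11, chr2:128125788-128126037, plus strand: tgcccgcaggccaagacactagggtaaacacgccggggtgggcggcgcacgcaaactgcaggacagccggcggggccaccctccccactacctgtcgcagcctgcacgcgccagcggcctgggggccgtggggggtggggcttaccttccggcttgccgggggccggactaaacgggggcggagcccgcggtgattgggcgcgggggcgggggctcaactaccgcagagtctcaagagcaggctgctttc
Sema4c, chr1:36558382-36558631, minus strand: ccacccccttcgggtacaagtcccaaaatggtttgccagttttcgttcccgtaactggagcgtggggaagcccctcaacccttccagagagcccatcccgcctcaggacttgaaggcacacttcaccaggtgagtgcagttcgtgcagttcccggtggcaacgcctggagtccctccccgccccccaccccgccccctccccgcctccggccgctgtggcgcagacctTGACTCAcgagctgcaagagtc
Hmgcs1, chr13:119690101-119690350, plus strand: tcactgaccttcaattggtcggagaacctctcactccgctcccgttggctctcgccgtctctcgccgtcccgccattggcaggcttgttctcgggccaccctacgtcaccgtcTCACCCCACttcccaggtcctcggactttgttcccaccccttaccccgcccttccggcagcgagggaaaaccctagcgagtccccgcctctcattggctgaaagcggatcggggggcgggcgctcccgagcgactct

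The motifs were searched on both strands in all RefSeq windows from 250 bases before to 50 bases after a start. AP-1 sites bind the dimers that BATF, FOS and JUN proteins form, and TGANTCA was found in 49 of 843 windows (5.81%) of the genes called higher in Anergic cells as defined below. It was found in 20 of 532 windows (3.76%) of the genes called lower, in 4.77% of the windows of all tested genes and in 7.81% of all windows. The higher genes thus held the match in a share about 1 percentage point above that of all tested genes, and the lower genes in a share about 1 point below it. The NR4A monomer motif AAAGGTCA was in 0.83%, 1.13%, 0.988% and 1.51% of the same 4 sets, and TCACNCCAC in 0.83%, 0.752%, 1.18% and 1.24%. In Sema4c the AP-1 match begins 22 bases before the start, and in Hmgcs1 the sterol element match begins 137 bases before it. Among genes named below, AP-1 matches were also in windows of Tnfsf13b and Bcl2a1b, called higher, and of Gpr146 and Sema4d, called lower. The sterol element was also matched in a window of Spp1, called higher, 61 bases before the start. A match is a description of these letters only.

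The libraries held 6909035 to 9527897 counts each, and log2 CPM correlated at 0.982 to 0.987 within a subset and 0.889 to 0.952 between subsets, across genes. Mitochondrial ribosomal RNA took 13.9 to 16.2% of the counts in Anergic libraries and 10.1 to 12.3% in the others. A list of 10 abundant entries, mainly ribosomal and small RNA, took its largest share, 39.6%, in Anergic library 3, which also had the lowest TMM factor, 0.871. Markers of other cells differed between subsets. The summed CPM of 8 myeloid genes was 5.06 to 9.29 in Anergic libraries, 11.1 to 11.7 in Teff and 3.65 to 6.77 in the rest. That of 7 NK and innate-like genes was 29.8 to 41.4 in Anergic (Ncr1 and Klre1 at 0), below the 214.7 to 278.9 of Teff and above the 2.59 to 5.82 of Treg and Naive libraries. That of 6 B cell genes was 217.9 to 281.4 in Anergic, above Teff (179 to 195.4), overlapping Naive (197.2 to 226) and below Treg (407.7 to 497.6). Some genes known from such cells were outside these sums and had enough counts to test only through the Anergic libraries. They were C1qa, C1qb, Sirpa, Ly96, Tlr4 and Dnase1l3 of myeloid cells, and Pax5, Tnfrsf13c and H2-DMb2 of B cells. Tlr4, Dnase1l3 and H2-DMb2 lay above all 9 others, while Itgam, in the myeloid sum, lay below them. The part of these cells in the results was not tested. Cd22, a B cell lectin gene, lay above all 9 others, at 29.2, 28.2 and 26.2 CPM against 0 to 15.7. The 13 T cell identity genes summed to 5653 to 6004 CPM in Anergic and 3962 to 4690 in the other libraries. The 8 follicular helper markers summed to 522.6 to 630.8 CPM in Anergic libraries, 178.3 to 194.2 in Teff, 144.3 to 153.4 in Treg and 48.8 to 51.2 in Naive. All 7 of those markers that could be tested lay above all 9 other libraries. How far follicular helper cells within the sort contribute to any value below was not tested, and in bulk libraries more cells of a type and more RNA per cell cannot be told apart.

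The sort itself showed in the RNA. Izumo1r, which encodes FR4, stood at 422, 429 and 421 CPM in the Anergic libraries, 293 to 329.6 in Treg, 72.5 to 75.4 in Teff and 48.5 to 51.4 in Naive. Nt5e, which encodes CD73, stood at 278, 232 and 258 CPM, with 171 to 191 in Treg and no more than 60.4 in Teff or Naive. Nrp1 stood at 370.4, 301 and 326 CPM against 242 to 269 in Treg. These genes were gated on and are no finding, but in each the Treg libraries, which were not gated on these proteins, came nearest. Cd4, on which no level was gated, reached 1168, 1199 and 1300.00 CPM against 446 to 726 in the 9 others (log2 fold change 0.85 ± 0.0675 SE, adjusted p = 1.99e-10 against the Naive libraries, the nearest subset). Cd44 separated Anergic and Teff cells from the rest but not from each other, at 304 to 369 and 287 to 304 CPM. Its difference from Teff missed the threshold (adjusted p = 0.0978) but passed without Anergic replicate 1 (log2 fold change 0.24, adjusted p = 0.0286) and with the replicate number as a block (0.17, adjusted p = 0.0182). Foxp3 stood at 20.3, 15.03 and 19.3 CPM in the Anergic libraries, which were sorted as FOXP3-negative, against 0.372 to 1.02 in Teff libraries, 1.21 to 1.61 in Naive and 531 to 562 in Treg. The Anergic mean was 3.35% of the Treg mean, and other annotated genes overlap the Foxp3 exons. The 7 Treg markers summed to 461.5 to 634.2 CPM in Anergic and 2159 to 2278 in Treg libraries, and their part in the results was not tested.

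Each gene was tested with edgeR's quasi-likelihood test and Benjamini-Hochberg adjustment over all tested genes, against the mean of the other 3 subsets on the log2 scale and against each subset. Against the mean, 2815 genes were higher in Anergic cells (21%) and 2298 lower (17.2%) at an adjusted p under 0.05, or 1995 and 3040 when scaled by total counts alone. A gene can pass this contrast without being highest: Foxp3 did (log2 fold change 1.14) while far below Treg. Against each of the 3 subsets, 888 genes were higher in every test (6.63%) and 578 lower (4.32%). Genes that met both conditions, no overlap with any other library and a call in the same direction against each subset, numbered 839 higher (6.26%) and 537 lower (4.01%), or 541 and 801 when scaled by total counts. They are called Anergic-high and Anergic-low genes here. Another 394 genes above and 311 below did not overlap but missed the threshold against at least 1 subset, and 49 and 41 were called against each subset with some overlap.

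The same no-overlap rule gave 724 genes above and 364 below all other libraries for Teff, 775 and 526 for Treg, and 1271 and 1675 for Naive. On this scale Anergic cells stood apart on more genes than Teff or Treg, and on fewer low genes than Naive. Scaling by total counts changed the Anergic numbers to 714 above and 1245 below, and was not run for the other subsets. At the edge of the rule, counting genes that average 50 CPM or more, Ssr1 was just inside on the high side, with an Anergic minimum of 116.68 CPM against a maximum elsewhere of 116.63, and Cd44 just outside, at 303.58 against 303.77. On the low side Stt3b was just inside (88.525 against 88.532 CPM) and Las1l just outside (62.928 against 62.851). Among the 41139 entries with too few counts to test, 220 lay above all 9 others and 44 below. Of the Anergic-high genes 101 passed the count filter only through the Anergic libraries, so they had to differ. They include 2 Anergic-high members each of the TNF family, cytokine, guidance, adhesion and Wnt lists described below, and 1 of the follicular helper list. The Anergic-high genes were protein-coding in 93.8% of the 838 that matched 1 annotated gene and the Anergic-low genes in 90.4% of 533, against 80.1% of all tested genes.

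**Figure D1:**
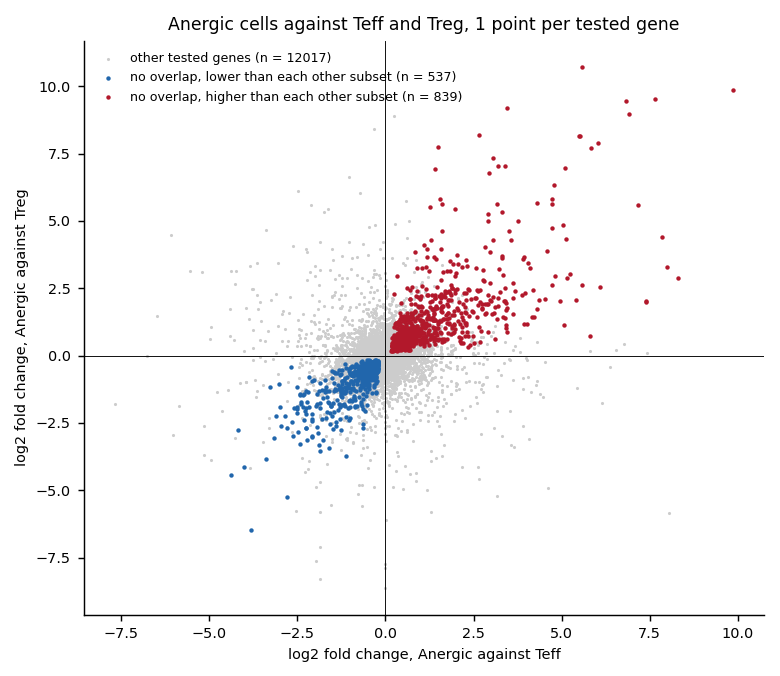
Log2 fold change of Anergic against Teff (horizontal axis) and against Treg (vertical axis), 1 point for each of 13393 tested genes. The 839 Anergic-high genes (red) fill the upper right and the 537 Anergic-low genes (blue) the lower left.

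Most differences were modest. The median fold of the Anergic-high genes over the nearest other subset was 1.55, and 279 of them stood at least 2-fold, 92 at least 4-fold and 38 at least 8-fold above it. For Anergic-low genes the median was 1.38, with 116, 24 and 5 genes past the same steps. Without the 101 genes that passed the count filter only through the Anergic libraries, 738 high genes were left, with a median of 1.46 and 178, 28 and 5 past those steps, so the larger number of steep differences on the high side lay mostly among those 101. The nearest subset of the high genes was Teff for 49.8%, Treg for 43.3% and Naive for 6.91%, and of the low genes Teff for 49.3%, Treg for 33.9% and Naive for 16.8%. The other subsets, compared with each other in the same fit to all 12 libraries, were ordered along the same line. Of the 839 Anergic-high genes 431 were higher in Teff than in Naive (51.4%, against 19.2% of all tested genes) and 432 higher in Treg than in Naive (51.5%, against 19%). Of the 537 Anergic-low genes 255 were lower in Teff than in Naive (47.5%, against 15.7%) and 208 lower in Treg than in Naive (38.7%, against 13.9%). Between Treg and Teff the Anergic-high genes were split, with 18.1% higher in Treg and 20.6% lower. The choice of genes set all 3 of these subsets on 1 side of Anergic cells but used no order among them.

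Of the 15 genes furthest above the nearest subset, 10 passed the count filter only through the Anergic libraries and are given by their levels, with no test. They were Edn3, Sostdc1, Spp1, Flrt2, Fbn2, Vdr, Fam84a, Ispd, Shtn1 and Exph5. Edn3, which encodes the signalling peptide endothelin-3, stood at 12.8, 10.1 and 11.05 CPM in the Anergic libraries, while 7 of the 9 others had no read and the highest was at 0.127. Its counts were 278 over the Anergic libraries and 1, 0 and 1 over Teff, Treg and Naive. That is 278-fold above Teff (95% counting interval 49.5 to 11020), at least 99.3-fold above Treg and 248.3-fold above Naive (44.2 to 9842), the floor being 3 counts over a subset. Flrt2, which encodes a transmembrane adhesion and guidance protein, had 18.7, 12.8 and 11.8 CPM in Anergic libraries, no read in any Teff or Treg library and 0 to 0.414 CPM in Naive. It was at least 119-fold above Teff and at least 127.6-fold above Treg. Sostdc1, which encodes a secreted inhibitor of the BMP and Wnt pathways, stood at 95.98, 48.7 and 52.05 CPM, with all 9 others between 0.101 and 0.62. Anergic library 1 was the highest of the 3 for Sostdc1, and the groups were far from overlapping. Spp1, which encodes the matrix cytokine osteopontin, had 12.7, 8.57 and 11.4 CPM against no read in Treg or Naive, and shares 18.8% of its exon length with a neighbouring annotated gene. Fbn2, which encodes the microfibril protein fibrillin-2, ranged over 18.2 to 39.5 CPM in Anergic and 0 to 0.992 in the 9 others.

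Cacna1d, which encodes the pore of an L-type voltage-gated calcium channel, stood at 95.2, 68.2 and 61.8 CPM in the Anergic libraries and at 2.90, 2.23 and 3.31 in Teff, with Treg and Naive at or under 2.12 (log2 fold change 4.73 ± 0.215 SE, adjusted p = 2.21e-14 against Teff). Vdr, the vitamin D receptor gene, was even across the Anergic libraries, at 24.3, 21.4 and 23.4 CPM, and lay at 0 to 1.27 in the rest. Angptl2, which encodes a secreted angiopoietin-like protein, had 241, 184 and 173 CPM in Anergic, 17.7, 16.5 and 13.1 in Treg, 14.03, 12.02 and 13.1 in Teff and 0.372 to 1.79 in Naive libraries. It was 12.6-fold above Treg, the nearest (log2 fold change 3.66 ± 0.133 SE, adjusted p = 3.39e-16). Gpm6b, which encodes a membrane proteolipid best known from neurons, stood at 167, 124 and 129.9 CPM against 10.6 to 14.3 in Teff and 4.69 to 6.37 in Treg (log2 fold change 3.51 ± 0.119 SE, adjusted p = 2.55e-16 against Teff). For both, Teff and Treg in turn lay above Naive libraries. Il21, the follicular helper cytokine, had 69.9, 45.9 and 41.5 CPM in Anergic and 3.13, 5.70 and 6.12 in Teff, with every Treg and Naive library at or under 0.633 (log2 fold change 3.40 ± 0.209 SE, adjusted p = 5.77e-12 against Teff). Of the remaining 5 of the leading 15, Fam84a, Ispd, which encodes an enzyme of dystroglycan glycosylation, Shtn1, which encodes an axon outgrowth protein, the zinc finger gene Tshz2 and Exph5, which encodes a RAB27 partner, the lowest Anergic library was at 9.51 CPM (Shtn1) and the highest other library at 2.43 (Tshz2). Opposite-strand genes overlap 67.5% of the exon length of Tshz2, and whether the counting used strand is not stated here, so its value is uncertain.

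**Figure D2:**
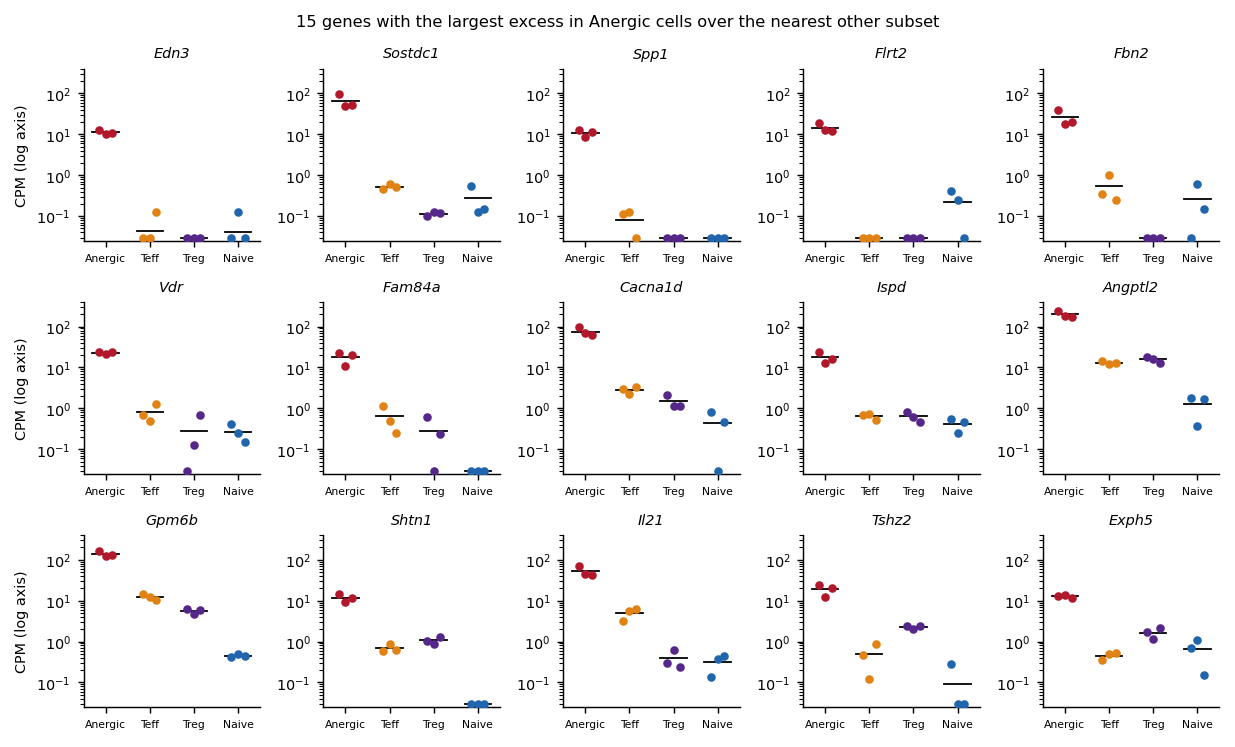
CPM of each library (points, logarithmic axis) and subset means (lines) for the 15 Anergic-high genes with at least 10 CPM that lay furthest above the nearest subset. Libraries with no read are drawn on the lower edge. In every panel the 3 Anergic points lie above the other 9, and for Angptl2 they stand at 173 to 241 CPM against at most 17.7.

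The leading genes on the low side included several for signalling enzymes, and all of them were still detected in Anergic cells. Tent5a, which encodes a non-canonical poly(A) polymerase, stood at 4.47, 6.11 and 8.79 CPM in the Anergic libraries and at 34.5 to 61.2 in the 9 others (log2 fold change -2.46 ± 0.147 SE, adjusted p = 2.76e-12 against Treg). Satb1, a chromatin organiser of T cell development and quiescence, had 111, 164 and 169 CPM in Anergic, 429 to 451 in Treg, 483 to 539 in Teff and 1105 to 1173 in Naive libraries (log2 fold change -1.58 ± 0.101 SE, adjusted p = 9.06e-12 against Treg). Each subset was thus far from overlapping with the Anergic libraries, and Naive lay highest. Ppp3ca, which encodes a catalytic subunit of calcineurin, the phosphatase that activates NFAT, was at 15.2, 18.1 and 18.4 CPM in Anergic against 52.7 to 69.03 elsewhere (log2 fold change -1.73 ± 0.0915 SE, adjusted p = 1.15e-13 against the Naive libraries). The other 3 subsets were close together for Ppp3ca, with means of 66.7, 59.1 and 56.9 CPM in Teff, Treg and Naive. Txk, a Tec family kinase gene, stood at 23.4, 25.6 and 27.6 CPM against 68.5 to 74.7 in Treg and 122 to 153 in Teff and Naive (log2 fold change -1.47 ± 0.0921 SE, adjusted p = 5.9e-12 against Treg).

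Another 10 of the leading low genes stood 2.39- to 3.86-fold below the nearest subset. They were Ppm1j, a PP2C-type phosphatase gene, Rras2, a RAS-related GTPase gene, Prkd3, which encodes protein kinase D3, the receptor gene Gpr146, the surface protein gene Cd7, Cerk, which encodes ceramide kinase, Trat1, which encodes an adaptor of the T cell receptor complex, Rtn4rl1, Crybg1 and Ifi214, of the interferon-inducible PYHIN family. Rras2 was at 2.94, 5.52 and 6.79 CPM in Anergic libraries against 17.5 to 39.2 in the 9 others. Trat1 varied by over 2-fold among the Anergic libraries, at 10.1, 23.2 and 23.96 CPM, and all 3 were under the lowest other library, at 43.5. Crybg1 was even, at 50.7, 46.02 and 49.7 CPM against 114 to 139.

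**Figure D3:**
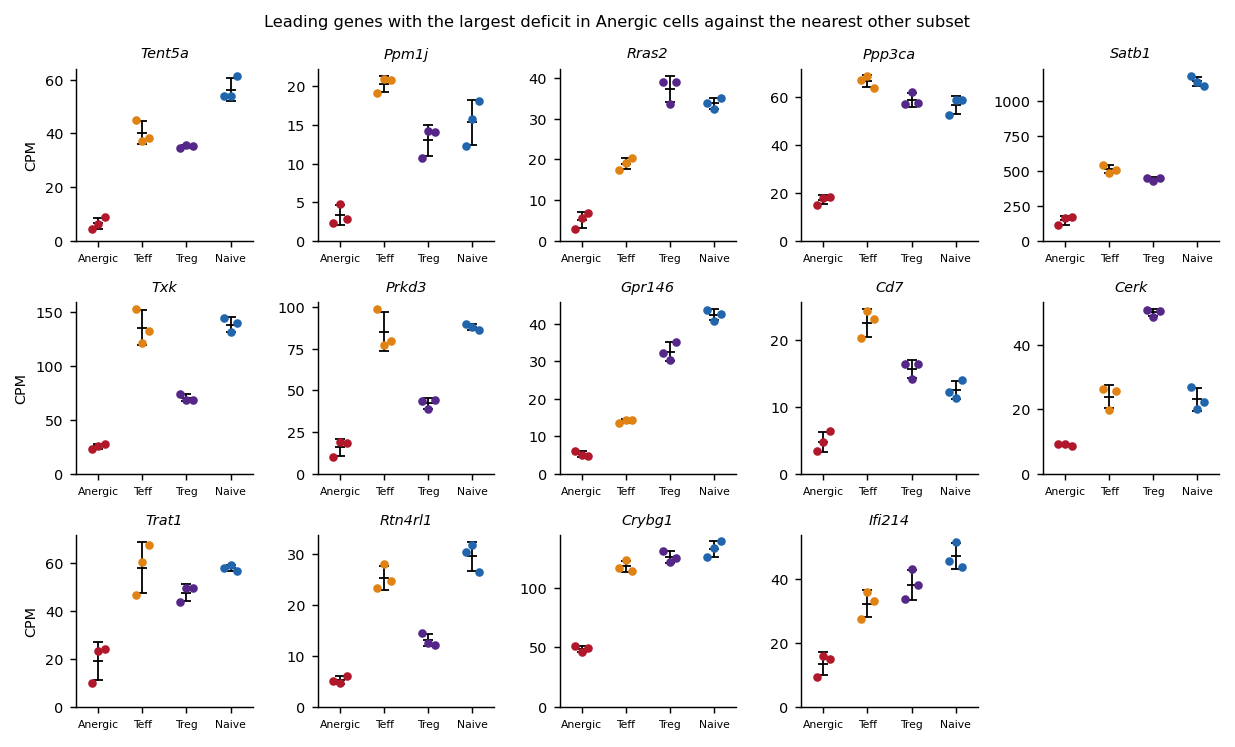
CPM of each library (points, linear axis from 0), with subset means and SD (bars, n = 3), for Anergic-low genes with at least 10 CPM in every other subset that lay furthest below the nearest one. The 3 Anergic points lie below the other 9 in every panel, and for Tent5a they stand at 4.47 to 8.79 CPM against at least 34.5.

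The study concerns BATF, an AP-1 family transcription factor that pairs with JUN proteins and IRF4, and BIM, a death-promoting protein of the BH3-only type, made from Bcl2l11. All libraries are wild-type, so they hold levels and no test of regulation. Batf stood at 67.5, 57.4 and 58.6 CPM in the Anergic libraries, 30.7, 47.00 and 35.3 in Treg, 31.4, 29.7 and 34.04 in Teff and 16.3, 19.6 and 17.9 in Naive. No other library reached the lowest Anergic one, and Treg library 2 came nearest (log2 fold change 0.71 ± 0.113 SE, adjusted p = 2.46e-05 against Treg). Bcl2l11 showed the opposite order of Anergic and the rest, at 28.6, 23.95 and 31.9 CPM in Anergic, 42.2, 39.8 and 40.03 in Teff, 46.05, 55.4 and 50.8 in Naive and 55.98, 59.9 and 62.1 in Treg (log2 fold change -0.53 ± 0.0986 SE, adjusted p = 0.000178 against Teff). Bcl2, whose survival-promoting product binds BIM, had its lowest levels in the Anergic libraries as well, at 70.9, 54.6 and 60.7 CPM against 109, 82.7 and 77.5 in Teff libraries, 131 to 147 in Naive and 208 to 227 in Treg (log2 fold change -0.54 ± 0.105 SE, adjusted p = 0.000354 against Teff). Bbc3, which encodes the BH3-only protein PUMA, had 6.47, 5.17 and 4.79 CPM in Anergic libraries and at least 7.54 elsewhere (log2 fold change -0.75 ± 0.179 SE, adjusted p = 0.00247 against Teff). The calls for these 4 genes held in all 21 alternatives tried for each. Opposite-strand exons overlap 6.09% of the exon length of Bcl2. The genes lie at chr12:85686669-85709087 (Batf), chr2:128126038-128162547 (Bcl2l11), chr1:106538178-106714274 (Bcl2) and chr7:16308393-16318205 (Bbc3) in GRCm38.

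Of 15 tested BCL2 family genes 5 were higher and 4 lower against the mean of the other subsets, or 4 and 5 scaled by total counts, with a median log2 fold change of 0.01 beside 0.01 over all tested genes. The counts of this and each later list stand beside 21% higher and 17.2% lower over all tested genes. Anergic-high and Anergic-low members stand beside 6.26% and 4.01%. Beside Bcl2l11, Bcl2 and Bbc3 no other family member was Anergic-low, and the anti-apoptotic gene Mcl1 did not pass against Teff (log2 fold change 0.01, adjusted p = 0.921). Bcl2a1b met the definition of an Anergic-high gene (11.1 CPM against 7.65 in Teff), but it shares 49.1% of its exon length with a related copy, and its call was lost in 7 of 21 alternatives (adjusted p 0.0188 to 0.124 over all of them). These included leaving out Teff replicate 1 (adjusted p = 0.124) or 2 (0.0611), or Anergic replicate 1 (0.108) or 2 (0.111). Bcl2l1, which encodes BCL-xL, was at 29.8 CPM, between Naive (17.1) and Teff (43.6). Of 17 BATF, AP-1 and IRF factors 6 were higher and 7 lower (median -0.11), and 4 were Anergic-high and 4 Anergic-low. Irf4, the partner of BATF, stood at 108, 84.4 and 90.1 CPM in Anergic against 57.6 to 64.6 in Treg libraries, 33.7 to 37.9 in Teff and 9.26 to 15.7 in Naive (log2 fold change 0.62 ± 0.0998 SE, adjusted p = 2.88e-05 against Treg). Maf, which encodes a large MAF factor of IL-21 and IL-10 producing cells, stood at 537, 443 and 434 CPM against at most 233 elsewhere (log2 fold change 1.09 ± 0.0749 SE, adjusted p = 4.27e-11 against Teff). Nfil3, a basic leucine zipper gene, was at 40.9, 22.3 and 26.1 CPM against 13.9 to 18.3 in Treg. The Anergic-low members were Bach2 and Bach1, repressors that compete at AP-1 type sites, Irf1 and Mafk. The call for Mafk against Treg did not survive leaving out Treg replicate 1 (a log2 change of -0.21 with an adjusted p of 0.171) or Anergic replicate 2 (-0.31 and 0.0618). Bach1 was at 17.4 to 20.5 CPM against 26.01 to 36.7 elsewhere and Irf1 at 134 to 163 against 189.6 to 242. The AP-1 subunit genes Fos (log2 fold change 0.08, adjusted p = 0.779) and Jun (-0.22, adjusted p = 0.316) did not pass against Teff.

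**Figure D4:**
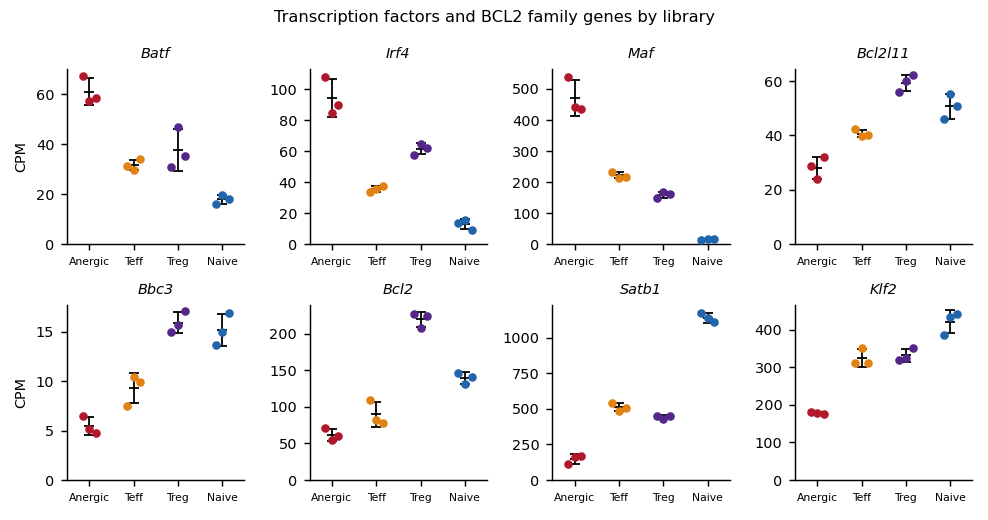
CPM of each library (points, linear axes from 0), with subset means and SD (bars, n = 3), for Batf, Irf4, Maf, Bcl2l11, Bbc3, Bcl2, Satb1 and Klf2. The 3 Anergic points are the highest for the first 3 genes and the lowest for the other 5, with Batf at 57.4 to 67.5 CPM against at most 47 elsewhere.

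Follicular helper genes had the largest share of Anergic-high members of all lists. Of 24 tested members 22 were higher and 2 lower against the mean (median log2 fold change 1.57), and 16 were Anergic-high (66.7%, against 6.26% of all tested genes). Sostdc1, Angptl2, Il21 and Maf, given above, belong to this list, and Sostdc1 passed the count filter only through the Anergic libraries. Bcl6, the lineage-defining repressor, stood at 78.2, 67.04 and 74.5 CPM against 18.96 to 26.1 in the 9 others (log2 fold change 1.58 ± 0.0916 SE, adjusted p = 1.57e-12 against Treg). The other 3 subsets lay close together for Bcl6, with means of 21.5, 24.4 and 20.3 CPM in Teff, Treg and Naive. Cxcr5, the receptor for follicle entry, was at 133, 128 and 128 CPM against 52.8 to 59.5 in Teff and 43.7 to 47.9 in Treg (log2 fold change 1.20 ± 0.0798 SE, adjusted p = 2.45e-11 against Teff). Tox2, an HMG-box factor gene, was at 112, 88.3 and 89.1 CPM against 23.4 to 27.3 in Teff and at most 11.7 elsewhere (log2 fold change 1.91 ± 0.136 SE, adjusted p = 8.23e-11 against Teff). The costimulator Icos, the SLAM adaptor Sh2d1a, the receptor Slamf6 and the coactivator Pou2af1 were Anergic-high too, with means of 33.99, 48.4, 357 and 22.6 CPM against 20.2, 35.5, 179 and 9.23 in Teff, the nearest for each. Lef1, a TCF family factor gene, was the member on the low side, at 203 to 233 CPM against 293 to 317 in Teff and Treg and 882 to 947 in Naive. Tcf7, its relative, was called higher against the mean (log2 fold change 0.61) but lay below Naive (log2 fold change -0.21 ± 0.0623 SE, adjusted p = 0.00788 against the Naive libraries). Il4, also a follicular helper cytokine gene, did not pass against Teff (5.32 against 6.60 CPM, adjusted p = 0.52).

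Of 16 inhibitory receptor genes 10 were higher and 1 lower, with a median log2 fold change of 0.98, or 0.90 with genes unread in a subset set at the floor of 3 counts. Pdcd1, which encodes PD-1, stood at 142, 115 and 121 CPM against 26.2 to 32.7 in Treg and 20.5 to 21.9 in Teff (log2 fold change 2.14 ± 0.0948 SE, adjusted p = 1.39e-14 against Treg). Lag3, a CD4-like receptor for MHC class II, was at 147, 84.7 and 92.2 CPM against 22.03 to 27.4 in Treg libraries, 1.98 to 6.49 in Teff and 1.24 to 2.62 in Naive (log2 fold change 2.10 ± 0.179 SE, adjusted p = 1.54e-09 against Treg). Anergic library 1 was again the highest of the 3, and no group overlapped with the Anergic one. Tigit (78.8 CPM against 47.8 in Treg), Btla (123 against 73.6 in Teff) and Cd200, the ligand of an inhibitory receptor (67.8 against 29.4 in Treg), were the other Anergic-high members. Ctla4 was not: at 15.6 CPM it lay below Treg, at 27.1 (log2 fold change -0.79 ± 0.210 SE, adjusted p = 0.0053 against Treg), as did Entpd1, which encodes the ectonucleotidase CD39, at 21.8 against 33.4. Tox, the factor of persistently stimulated T cells, was Anergic-high at 216, 184 and 199 CPM against 102 to 114 in Treg (log2 fold change 0.87 ± 0.0770 SE, adjusted p = 2.79e-09 against Treg).

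Among 23 costimulatory receptors and TNF family genes 14 were higher and 2 lower (median 0.80), and 7 were Anergic-high (30.4%). Tnfsf8, which encodes the CD30 ligand, stood at 237, 188 and 190.4 CPM against 29.4 to 42.3 in all 9 others (log2 fold change 2.43 ± 0.0898 SE, adjusted p = 4.82e-16 against Treg). The other 3 subsets lay within that narrow range of each other. Tnfsf11, which encodes RANKL, was at 72.1, 64.7 and 58.3 CPM against at most 19.4 elsewhere (log2 fold change 1.80 ± 0.106 SE, adjusted p = 2.34e-12 against Teff). Tnfsf13b (BAFF, a B cell survival factor) and Tnfsf4 (OX40 ligand) were Anergic-high at low levels and passed the count filter only through the Anergic libraries, at means of 3.92 and 2.92 CPM. The costimulatory receptor gene Cd28 and the cytokine gene Tnf stood 1.38- and 1.32-fold above Teff, the nearest subset.

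Cytokine and secreted factor genes were higher against the mean for 17 of 22 tested members and lower for 1, with a median of 2.71, or 2.60 with unread genes at the floor. Only 6 of them were Anergic-high (27.3%): Edn3, Spp1, Il21, Csf1, Cxcl10 and Il16. Edn3 and Spp1 passed the count filter only through the Anergic libraries, so they had to differ. Csf1, the macrophage growth factor gene, averaged 37.2 CPM in Anergic, 20.2 in Treg libraries, 4.95 in Teff and 0.836 in Naive, and Cxcl10, the CXCR3 ligand gene, 11.7, 2.49, 3.72 and 0.602. Ifng, Il2 and Il10 were not Anergic-high. Ifng was lower than in Teff, at 16.2 against 25.1 CPM (log2 fold change -0.63 ± 0.202 SE, adjusted p = 0.0242 against Teff), Il2 did not pass against Teff (1.46 against 2.03 CPM, adjusted p = 0.441), and Il10 did not pass against Treg (2.90 against 5.16 CPM, adjusted p = 0.159).

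Receptors and ligands of axon guidance, which in immune cells guide contacts and migration, had 13 of 21 tested members higher, 5 lower (median 1.04) and 10 Anergic-high (47.6%). Of these 10, Flrt2 and Sema4c passed the count filter only through the Anergic libraries, so they had to differ. Beside Nrp1, which was gated on, and Flrt2, they included the plexin genes Plxnb2, Plxna3, Plxnb1 and Plxnc1, the semaphorin genes Sema4c and Sema7a, the ephrin gene Efnb2 and the neurotrophin receptor gene Ntrk3. Ntrk3 averaged 63.4 CPM in Anergic against 21.3 in Teff cells, 21.1 in Naive and 4.10 in Treg (log2 fold change 1.58 ± 0.0969 SE, adjusted p = 5.83e-12 against Teff). Plxnb2, a receptor for class 4 semaphorins, was at 10.4, 6.69 and 5.46 CPM against 1.65 to 2.15 in Treg, and Sema4c, one of its ligands, whose upstream bases are printed above, at 4.47, 4.11 and 4.26 against 0.909 to 1.27 (it passed the count filter only through the Anergic libraries). Sema4a and Sema4d lay on the low side, although the call for Sema4a against Treg did not survive leaving out Treg replicate 1, with an adjusted p of 0.0572, or Anergic replicate 2, with 0.0583. Sema4d stood at 185 to 211 CPM against 234 to 296 in the 9 others. The class 4 semaphorins were thus found on both sides.

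Of 31 adhesion and matrix genes 15 were higher and 9 lower (median 0.56), with 9 Anergic-high and 5 Anergic-low. Of the Anergic-high members 2 passed the count filter only through the Anergic libraries. Spock2, a secreted matrix proteoglycan gene, stood at 185, 126 and 143 CPM against 34.9 to 42.3 in Treg and 10.8 to 16.6 in Teff (log2 fold change 1.97 ± 0.117 SE, adjusted p = 2.73e-12 against Treg). Itgb8 and Itgav, which encode the partners of a TGF-beta-activating integrin, were both Anergic-high: Itgb8 averaged 59.6 CPM against 36.4 in Treg and 1.05 in Teff, and Itgav 113 against 67.7 and 51.0. Itgb3, another partner of the Itgav product, lay on the other side, at 17.5, 24.7 and 31.3 CPM against 51.3 to 59.1 in Treg and 130.5 to 177 in Teff and Naive (log2 fold change -1.15 ± 0.122 SE, adjusted p = 6.34e-08 against Treg). Selplg, which encodes the selectin ligand PSGL-1, was at 107, 120.5 and 129.8 CPM against 240.3 to 285 elsewhere (log2 fold change -1.15 ± 0.0762 SE, adjusted p = 2.37e-11 against Teff). Itgb7, which encodes an integrin subunit of gut homing, was Anergic-low as well, at 289.9 against 492 CPM in Teff. Of 31 Wnt, BMP and TGF-beta genes 13 were higher and 8 lower (median 0.00, or -0.09 scaled by total counts). There the inhibitory SMAD gene Smad7 stood at 73.6, 62.7 and 57.2 CPM against 116 to 128 in Teff, 189 to 196 in Treg and 283 to 291 in Naive (log2 fold change -0.89 ± 0.0778 SE, adjusted p = 2.76e-09 against Teff), and the Wnt coreceptor gene Lrp5 was 4.46-fold below Treg, the nearest.

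Receptors for migration and cytokines were on both sides. Of 18 chemokine and egress receptor genes 10 were higher and 5 lower (median 0.65). Cxcr4, the CXCL12 receptor gene, stood at 79.04, 55.1 and 55.8 CPM against 17.2 to 40.2 elsewhere (log2 fold change 0.85 ± 0.123 SE, adjusted p = 6.65e-06 against Treg). S1pr1 and S1pr4, receptors for the egress lipid sphingosine-1-phosphate, were Anergic-low, S1pr1 at 169, 176 and 179.97 CPM against 221 to 237 in Teff and 431 to 478 in Naive (log2 fold change -0.39 ± 0.0701 SE, adjusted p = 0.000117 against Teff). Of 33 cytokine receptor and STAT genes 14 were higher and 12 lower, or 10 and 13 scaled by total counts, and 1 was Anergic-high, Crlf2, a receptor chain for TSLP. Il4ra, the IL-4 receptor chain, was Anergic-low at 55.99, 63.2 and 62.3 CPM against 124 to 136 in Teff and 269 to 342 in Treg and Naive (log2 fold change -1.11 ± 0.0753 SE, adjusted p = 3.15e-11 against Teff). Ifngr1, a chain of the interferon-gamma receptor, was at 24.6, 34.6 and 40.1 CPM against 66.9 to 179 in the others (log2 fold change -1.04 ± 0.128 SE, adjusted p = 3.59e-07 against the Naive libraries).

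Of 50 lineage transcription factor genes 25 were higher and 15 lower (median 0.50), with 10 Anergic-high and 7 Anergic-low. Hif1a, the hypoxia-inducible factor gene, averaged 444 CPM against 249.7 in Treg libraries, 165 in Teff and 106 in Naive (log2 fold change 0.83 ± 0.0664 SE, adjusted p = 4.86e-10 against Treg). Myb, Runx2, Pou2f2, Zbtb32, Zeb2 and Nfia were also Anergic-high, 1.37- to 2.41-fold above the nearest subset. Klf2, the activator of S1pr1, was at 181, 178 and 175 CPM against 310.2 to 442 in the 9 others (log2 fold change -0.86 ± 0.0700 SE, adjusted p = 7.96e-10 against Teff). Of 23 naive and quiescence genes 3 were higher and 17 lower (median -0.70), and 9 were Anergic-low (39.1%, against 4.01% of all tested genes), among them Satb1, Klf2, Lef1, Foxo1, Bach2, S1pr1, Tob1 and Cnr2. Foxo1, the forkhead factor gene of quiescent T cells, averaged 178 CPM in Anergic, 209 in Teff, 338 in Treg and 385 in Naive, and Bach2 50.3, 60.4, 129 and 177. In both, Anergic and Teff cells were nearer to each other than to the rest. Il7r and Ccr7, also naive genes, were not Anergic-low: Il7r did not pass against Treg (adjusted p = 0.146) and Ccr7 was above Teff (log2 fold change 0.37 ± 0.0901 SE, adjusted p = 0.0033 against Teff). Of 19 Th1 and cytotoxic genes 10 were higher (52.6%) and 3 lower (median 0.49), or 9 and 4 scaled by total counts. None of the 19 was Anergic-high, beside 6.26% of all tested genes. Prf1, which encodes perforin, was Anergic-low at 0.706, 0.939 and 2.00 CPM against 6.97 to 9.17 in Treg and at least 20.9 in Teff and Naive (log2 fold change -2.78 ± 0.245 SE, adjusted p = 2.85e-09 against Treg).

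Genes of antigen receptor signalling and its restraint were found on both sides. Of 22 genes induced by the T cell receptor 16 were higher and 4 lower (median 0.47), and 6 were Anergic-high (27.3%). Egr3, an early growth response factor gene linked to anergy, stood at 64.3, 65.3 and 64.6 CPM against 22.03 to 34.1 in the 9 others (log2 fold change 1.02 ± 0.0873 SE, adjusted p = 1.56e-09 against Treg). Egr1 (172 CPM against 118 in Treg) and Spry1, a RAS pathway inhibitor gene (50.5 against 27.5), were with it, although opposite-strand exons overlap 24.4% of the exon length of Spry1. Nr4a1, the NUR77 gene, was above Teff but not above Treg or Naive (63.1 CPM, against 49.6, 130.3 and 93.1 in Teff, Treg and Naive). Myc, the growth factor-induced oncogene, was Anergic-low, at 21.3, 27.4 and 31.9 CPM against 41.1 to 43.4 in Teff libraries, 71.4 to 85.4 in Naive and 89.4 to 101 in Treg (log2 fold change -0.65 ± 0.110 SE, adjusted p = 6.07e-05 against Teff), as was Dusp5, which encodes an ERK phosphatase (22.6 against 44.1 in Naive, with 22.1% of its exon length overlapped on the opposite strand).

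Of 11 NFAT and calcineurin genes 6 were higher and 2 lower (median 0.16), or 4 and 3 scaled by total counts. Nfatc1 stood at 743, 645 and 647 CPM against 286 to 321 in Teff and 153 to 231 in Treg and Naive (log2 fold change 1.18 ± 0.0716 SE, adjusted p = 4.8e-12 against Teff). Nfatc2, the other main NFAT gene of T cells, was lower than in Teff (log2 fold change -0.22 ± 0.0639 SE, adjusted p = 0.0134 against Teff), at 196 against 228 CPM, and above Treg and Naive, both at about 143. The calcineurin gene Ppp3ca was thus at its lowest in the cells where Nfatc1 was at its highest. In a list of 29 Tec kinase and calcium signalling genes, chosen after values were seen, 9 were higher and 11 lower, with 3 Anergic-high and 8 Anergic-low. Beside Cacna1d the high members were Nrgn, which encodes the calmodulin-binding protein neurogranin, at 14.1, 15.03 and 18.6 CPM against 1.24 to 2.90 in Teff (log2 fold change 2.82 ± 0.271 SE, adjusted p = 1.56e-08 against Teff), and Orai1, the store-operated calcium channel gene, 1.24-fold above Naive, a call that was lost without Anergic replicate 1 (log2 fold change 0.25, adjusted p = 0.0619). The low members were Txk, Tec, Prkd3, Prkcq, Trat1, Itpr3, Cacnb1 and Ppp3ca.

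Of 31 anergy-linked ligase and attenuator genes 9 were higher and 15 lower (median -0.15), with 4 Anergic-high and 6 Anergic-low. Rnf128, which encodes the ligase GRAIL, was at 10.6, 7.98 and 10.8 CPM against 1.53 to 2.55 in Teff, at most 1.41 in Treg and 3 counts in all of Naive (log2 fold change 2.29 ± 0.341 SE, adjusted p = 1.24e-05 against Teff; 71.2-fold above Naive, 95% counting interval 24.1 to 347.5). Dgkz, a diacylglycerol kinase gene, stood at 668, 667 and 603 CPM against 399 to 477 elsewhere (log2 fold change 0.46 ± 0.0619 SE, adjusted p = 2.39e-06 against Treg), and the adaptor gene Lax1 at 158, 143 and 133 against at most 90.1. The ligase genes Cblb and Itch did not pass against the nearest subset, Treg (log2 fold changes -0.02, adjusted p = 0.873, and 0.02, adjusted p = 0.881). Cbl, Nedd4l, Socs3, Pag1, Ptpn2 and Grap were the Anergic-low members. Nedd4l, a HECT-type ligase gene, was at 6.94, 9.98 and 9.45 CPM against 16.2 to 17.5 in Teff and 37.2 to 43.3 in Naive (log2 fold change -0.94 ± 0.151 SE, adjusted p = 3.39e-05 against Teff). Socs3, the cytokine signal suppressor gene, was at 64.7, 54.5 and 39.5 against 67.4 to 81.9 in Teff. Of 30 RGS, DUSP and small GTPase regulator genes 12 were higher and 11 lower, or 10 and 12 scaled by total counts. Rasgrp1, which links diacylglycerol to RAS, was Anergic-low at 143, 180.1 and 194 CPM against 268 to 395 in the 9 others (log2 fold change -0.72 ± 0.0816 SE, adjusted p = 1.73e-07 against Treg).

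Genes of cholesterol synthesis and uptake were lower in Anergic cells across most of a list that was chosen after values were seen. Of 27 tested members 17 were lower and 1 higher (median -0.47), 10 were Anergic-low (37%) and none was Anergic-high. Among them were Mvd, Acss2, Sqle, Idi1, Hmgcs1, Cyp51, Srebf2, which encodes the master regulator of the pathway, and Insig1, whose product restrains that regulator. The sterol element TCACNCCAC was in 1 of 28 windows of the tested members (3.57%), that of Hmgcs1 printed above. Its share over the windows of all tested genes was 1.18%. Hmgcs1, an early enzyme of the pathway, averaged 16.8 CPM in Anergic, 26.9 in Teff, 33.1 in Treg and 34.3 in Naive. Srebf2 averaged 139.5, 184, 222 and 237 CPM in the same order. For all but Acss2, Teff was the nearest subset.

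Among 22 glycolysis and glucose uptake genes 8 were higher (36.4%) and 4 lower (18.2%), with a median of 0.17, or 6 and 4 scaled by total counts. The shares over all tested genes were 21% and 17.2%, so the lower share was near that of all genes. Of the 22, 2 were Anergic-high (9.09%, against 6.26% of all tested genes) and 4 Anergic-low (18.2%, against 4.01%). Scaled by total counts the numbers were 0 and 4. The glucose transporter genes Slc2a3 and Slc2a1 were both Anergic-low, Slc2a3 at 19.8, 23.8 and 23.6 CPM against 30.8 to 39.02 in Naive, 67.3 to 76.5 in Teff and 93.98 to 98.3 in Treg (log2 fold change -0.63 ± 0.101 SE, adjusted p = 1.61e-05 against the Naive libraries), and Slc2a1 at 22.4 to 23.6 against 28.5 to 41.1. Of 24 adenosine and cyclic AMP genes 12 were higher and 5 lower (median 0.16). Beside Nt5e, whose product makes adenosine, the nucleoside transporter gene Slc29a1 was Anergic-high at 69.4, 59.4 and 57.5 CPM against 32.3 to 34.7 in Treg (log2 fold change 0.89 ± 0.0910 SE, adjusted p = 3.26e-08 against Treg). Ada, whose product breaks adenosine down, was Anergic-low at 1.06, 1.29 and 1.20 CPM against 3.84 to 6.87 elsewhere (log2 fold change -2.09 ± 0.290 SE, adjusted p = 4.31e-06 against Teff), and so was the adenylate cyclase gene Adcy6, at 3.18, 5.28 and 5.46 against 8.93 to 10.2 in Teff and 49.9 to 53.4 in Naive. Of 37 cell cycle genes 11 were higher (29.7%) and 7 lower (18.9%), beside 21% and 17.2% of all tested genes, or 9 and 10 scaled by total counts. The replication helicase gene Mcm6 was Anergic-high at 146 to 159 CPM against 55.4 to 119, and the cyclin gene Ccnd2 Anergic-low at 331 to 356 against 399.7 to 477.

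Of 20 interferon response genes 4 were higher (20%, against 21% of all tested genes) and 7 lower (35%, against 17.2%), with a median of -0.07. Oas2, an antiviral enzyme gene, was Anergic-low at 2.00, 2.00 and 2.26 CPM against 6.35 to 7.98 in Treg libraries, 10.8 to 11.1 in Teff and 20.3 to 32.8 in Naive (log2 fold change -1.72 ± 0.240 SE, adjusted p = 4.34e-06 against Treg). In the PYHIN family of interferon-inducible genes, a list chosen after values were seen, 5 of 10 tested members were lower and 3 higher. Of the 10, Ifi204 and Ifi211 passed the count filter only through the Anergic libraries, so their direction was largely set by the filter. The 4 Anergic-low members of the family, Ifi206, Ifi214, Ifi213 and Ifi209, lie next to each other on chromosome 1, with starts from 173468485 to 173630917 in GRCm38. Ifi213 stood at 31.4, 40.98 and 37.8 CPM against 66.2 to 75.5 in Treg and 86.3 to 121 in Teff and Naive (log2 fold change -0.95 ± 0.0851 SE, adjusted p = 3.45e-09 against Treg). As the family arose by duplication, its members may share reads. Among the 27 Treg core genes 18 were higher and 3 lower (median 1.14), and the 4 Anergic-high ones were Izumo1r, Nt5e and Nrp1, all gated on, and Tigit. Ikzf2, which encodes the Treg-associated factor HELIOS, stood at 459, 323 and 348 CPM, above Teff (79.4 to 92.5) and Naive (2.85 to 5.38) but below Treg (525 to 540.5; log2 fold change -0.50 ± 0.0972 SE, adjusted p = 0.000276 against Treg).

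**Figure D5:**
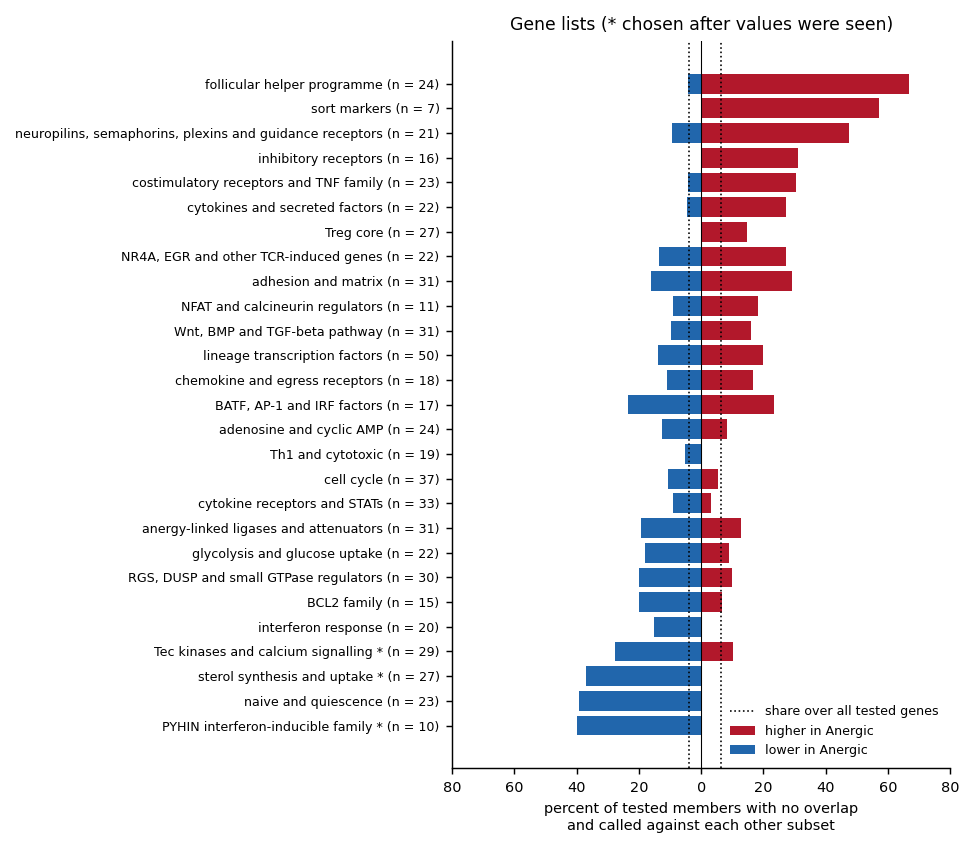
Share of the tested members of each gene list that were Anergic-high (red, to the right) or Anergic-low (blue, to the left), in percent, with the shares over all tested genes as dotted lines at 6.26 and 4.01. Follicular helper genes reach 66.7% on the high side, and naive and quiescence genes 39.1% on the low side. Members that passed the count filter only through the Anergic libraries, and genes that were gated on, are included.

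Anergic-high or Anergic-low genes that were next to each other among the tested protein-coding genes formed 12 runs of 3 or more in the same direction. Of those 10645 protein-coding genes 786 were Anergic-high and 482 Anergic-low. How many runs they would form in random order was not computed, so the number of runs is a description only. On chromosome 6, Cd4, Lag3 and Ptms were all Anergic-high, with starts from 124864692 to 124913681. Lag3 and Cd4 are related by ancestral duplication, and the values of both are given above. On chromosome 1 Abi2, Raph1 and Cd28, on chromosome 9 Msantd4 and the inflammatory caspase genes Casp1 and Casp4, and on chromosome 19 Gnaq, Gna14, Vps13a and Gcnt1 were Anergic-high together. The longest run, on chromosome 11 from 117966079 to 118259651, held the Anergic-low genes Socs3, Pgs1, Dnah17, Cyth1 and Usp36. Reads that run past the end of a gene into its neighbour were not tested for.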

How the data were processed

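Per the labels' protocols, RNA was isolated on RNeasy columns (QIAGEN) and turned into stranded total RNA libraries (Takara SMARTer). The deposited values are unnormalised counts, with 1 column of reads per gene for each library. The series design text names Trimmomatic, HISAT2, SAMtools, featureCounts and edgeR as the authors' pipeline. GRCm38 (mm10) is the genome per the submitters' processing notes. The annotation that was counted and whether strand was used are not stated in what was used here.

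Of 54532 entries, 28629 had a count and 13393 passed filterByExpr (about 1.22 CPM in 3 libraries). Tests used edgeR 4.0.16 in R 4.3.3 (glmQLFit, glmQLFTest), TMM scaling and 1 mean per subset fitted to all 12 libraries, two-sided. The contrast against the mean averages the 3 other subsets with equal weight. A standard error is the size of the log2 fold change divided by the square root of F. Intervals and floors cover counting error only. Positions are from GENCODE vM21 (53654 entries, 98.4%, matched 1 gene) and upstream sequences from RefSeq. Replicates differed by more than sampling noise, and none was merged. Chi-square per degree of freedom was 9.65 to 21.5 between Anergic replicates and 2.2 to 7.33 between replicates of the other subsets. The tests used 1 estimate of spread per gene for all subsets.

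Members and gene lists were chosen with earlier results of these data known, and 3 lists (sterol, PYHIN, Tec and calcium) after their values were seen. Named genes are the 15 Anergic-high (at least 10 CPM in Anergic) and 15 Anergic-low genes (at least 10 CPM in the lowest other subset) furthest from the nearest subset, the study's genes and sort markers, and up to 3 of each direction per list. Predicted, RIKEN, ribosomal protein, pseudogene and receptor segment names did not enter the ranking. Other genes named were chosen after their values were seen, and some genes that the rule names are not reported here. On data simulated from these libraries, over 13030 genes with 200 changed, the combined rule found 64% of genes changed 2-fold and 91% of those changed 4-fold with 0 false calls, and no overlap alone made 94 false calls. Every unchanged gene there had the same mean in all 4 subsets. Genes level with Anergic cells in some subsets but not in others were not simulated, so the 0 false calls do not cover them. Each simulated gene also had the same spread in all subsets, so the wider spread among the Anergic replicates is not covered either. Alternatives were DESeq2 1.42.0, limma 3.58.1 voom, other scalings and filters, a replicate block, the 9 other libraries as 1 group, and each library left out in turn.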

Additional observations from a re-analysis of the deposited data

How the results depend on the processing

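The 839 Anergic-high and 537 Anergic-low genes became 541 and 801 when libraries were scaled by total counts alone, which lowered the median log2 fold change of all genes from 0.009 to -0.084. Under that scaling 586 genes were called above each of the other subsets and 885 below, and 714 lay above and 1245 below all 9 other libraries. With 10 abundant entries removed first, the same scaling gave 829 and 508. Removing Gm23935 too, an alternative chosen after seeing the data, gave 852 and 526. With the 9 other libraries as 1 group, 872 genes were higher than that group and 713 lower, where the differences among those subsets enter the error term. These are not counts of Anergic-high and Anergic-low genes. They stand beside 2815 and 2298 in the main test against the mean of the other subsets, so far fewer genes were called. DESeq2 gave 772 and 475 Anergic-high and Anergic-low genes, and limma voom 873 and 513.

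With each library left out in turn, 2423 to 2919 genes were higher and 1931 to 2288 lower than the mean of the others, the lowest both without Anergic library 3. From 768 to 911 were called above and 507 to 560 below each subset, 1282 to 1552 lay above and 873 to 1209 below all others, and 764 to 866 were Anergic-high and 489 to 532 Anergic-low, with at least 701 and 446 shared with the full set. The deviations of same-numbered samples correlated at -0.0485 to 0.184, above 0.1 in 4 of 18 pairs, and those of differently numbered samples at -0.199 to 0.171, above 0.1 in 1 of 36. In 11 of 12 libraries the mean correlation was highest with their own number, which is a hint of pairing from the data and not from the design, and the samples were treated as unpaired. The replicate block gave 2984 higher and 2515 lower genes, and 896 Anergic-high and 590 Anergic-low. Of 5404 values of 258 results for named genes, 80 lost their call, 2 gained one (Cd44 against Teff, with the replicate block and without Anergic replicate 1) and 0 reversed. The calls against the nearest subset lost most often were those of Dusp16 (9 of 21 alternatives), Ier2 (8), Bcl2a1b (7), Nfat5 and Tnfrsf25 (6 each). At this depth 64% of simulated 2-fold changes were found, and smaller ones were not simulated.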
